A study of Mus musculus with 4 samples.

Results

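Superoxide dismutases and catalase are the enzymes that remove superoxide and the hydrogen peroxide formed from it. Sod1 encodes the copper and zinc enzyme of the cytosol, Sod2 the manganese enzyme of the mitochondrial matrix (MnSOD) and Sod3 a secreted copper and zinc enzyme that binds to the extracellular matrix. Each converts superoxide to oxygen and hydrogen peroxide. Cat encodes catalase, the haem enzyme of peroxisomes that splits hydrogen peroxide into water and oxygen. In striated muscle the respiratory chain is a main source of superoxide, and the matrix form meets it first.

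The 4 genes were taken by symbol from 18193 genes on an oligonucleotide array. They had 13 of its 45037 probe sets that were not array controls: 5 for Sod1, 4 for Sod2, 2 for Sod3 and 2 for Cat. RNA from mouse heart and from muscle was measured on 4 arrays, 1 for each of 4 groups, the hearts of f/f mice, the hearts of d/d mice, and the muscles of each. The f/f mice carried Sod2 flanked by loxP sites on both alleles (flox/flox) and were labelled as controls. The d/d mice (del/del) came from crossing them to mice with the MCK-Cre transgene, in which the promoter of muscle creatine kinase, a gene of striated muscle, drives the recombinase. Fibroblasts, vessel cells and blood cells of these tissues lie outside that promoter's usual range, and the RNA here came from whole tissue. The sources used here give neither age, sex and strain nor which muscle was taken, how many animals a sample holds and whether hearts and muscles were paired by animal.

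With 1 array per group there is no error between animals, and a difference between genotypes describes a pair of arrays. The values are intensities scaled to a common trimmed mean. Signals at or under a floor of 7.51 have only an upper bound, and 58.0% to 61.1% of probe sets lay above it on each array. Probe sets that share a gene disagreed in their d/d to f/f log2 differences by an SD of 0.39 in heart and 0.40 in muscle, which serves as a technical yardstick. It measures disagreement between probes. The summed signal of 8 cardiac markers was 37730 in f/f and 37995 in d/d heart, and 2880 and 2427 in muscle. Actc1, a cardiac actin also made in muscle, gave 2265 and 2241 of the muscle sums. Of the 6 cardiac markers measured in muscle, 5 were at least 2-fold lower in d/d (median log2 difference -1.75), such as Tnni3, cardiac troponin I, at 86.8 in f/f and 8.30 in d/d. The muscle arrays thus differ in cardiac transcripts, whose part in the values below was not tested. The sum of 9 skeletal markers was 71039 in f/f and 73363 in d/d muscle, and 5798 and 8787 in heart. Of the heart sums Ckm gave 4256 in f/f and 4097 in d/d, and Acta1 gave 1499 and 4668. In heart 4 of the 9 were at the floor in f/f and 6 in d/d. Each array thus showed the markers of its labelled tissue. In whole tissue, fewer cells of a type and less RNA per cell cannot be told apart.

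The first comparison asked how far the transcript of the deleted gene differed in the d/d tissues. In heart the 4 Sod2 probe sets all read lower in d/d, from 86.2% to 43.0% of the f/f signal. The bright probe sets differed least and the dim ones most. In muscle the values lay closer together, from 104% to 74% of f/f, and the brightest probe set was not lower. Of the 4 Sod2 probe sets 3 are annotated to the RefSeq mRNA and 1 to another GenBank record. Their position within Sod2, inside or outside the loxP-flanked stretch, is not stated in the labels, so which of them read the deleted part is unknown.

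The brightest Sod2 probe set, 1417193_at, read 2330 in f/f heart, 1927 in d/d heart, 1667.5 in f/f muscle and 1732 in d/d muscle. In order of level came f/f heart, then d/d heart, then the muscle arrays, with d/d ahead. The heart arrays differed by -0.27 and the muscle arrays by 0.06 on the log2 scale, both within the yardstick. The muscle value was -0.04 with the intensities as deposited, so that its sign depends on the scaling. The next probe set, 1448610_a_at, read 2156 in f/f heart, 1859 in d/d heart, 1236 in f/f muscle and 1123 in d/d muscle. Its differences were -0.21 in heart and -0.14 in muscle, again within the yardstick.

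The dimmer probe sets gave larger differences. Probe set 1454976_at read 363 in f/f and 211 in d/d for heart, and 401 and 325 for muscle. That is a log2 difference of -0.79 in heart, beyond the yardstick of 0.39, and of -0.31 in muscle, within 0.40. The dimmest, 1417194_at, read 67.8 in f/f heart, 29.2 in d/d heart, 61.6 in f/f muscle and 45.5 in d/d muscle. The d/d heart array was the lowest of the 4 on both of these probe sets. The dimmest was 2.33-fold lower in d/d heart (log2 difference -1.22) and 1.35-fold lower in d/d muscle (-0.44). It was the only 1 of the 12 probe sets of the 4 genes with a measured heart value that passed 2-fold in heart, where 8.2% of all measured probe sets did. In muscle 0 of 12 passed, against 6.53% of all probe sets.

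**Figure D1:**
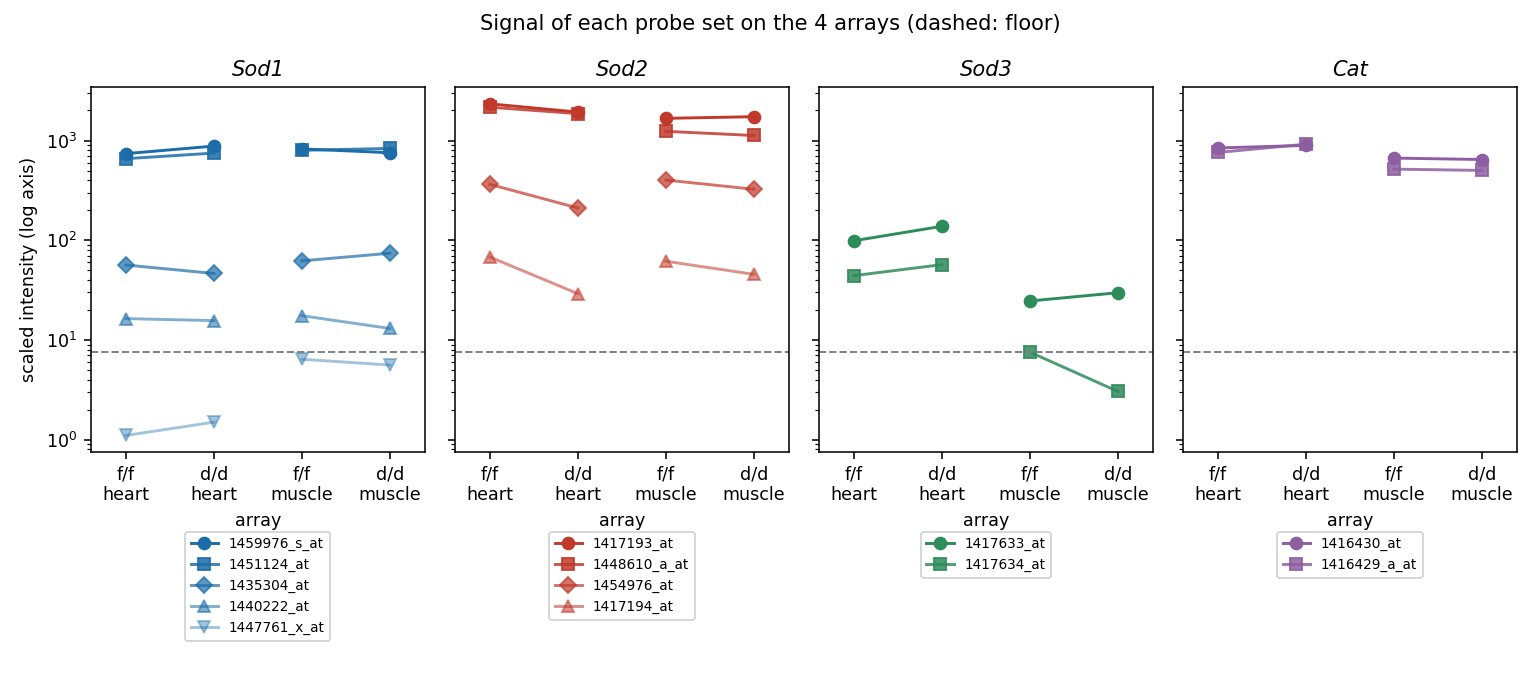
Scaled intensity (log axis) of each probe set of Sod1, Sod2, Sod3 and Cat on the 4 arrays, with lines joining f/f to d/d within a tissue and a dashed line at the floor of 7.51. The 2 dim Sod2 probe sets slope down most in heart, and both Sod3 probe sets sit lower on the muscle arrays than on the heart arrays.

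Set against the brightest Sod2 probe set on the same array, a ratio that no scaling factor alters, the dim probe sets were relatively lower in d/d in both tissues. For 1417194_at the log2 ratio to 1417193_at was -5.10 in f/f heart and -6.05 in d/d heart, against -4.76 in f/f muscle and -5.25 in d/d muscle. The shift was thus -0.94 in heart and -0.49 in muscle. For 1454976_at it was -0.51 in heart and -0.36 in muscle. The heart and muscle comparisons use separate arrays. For 1448610_a_at the shift was 0.06 in heart and -0.19 in muscle. The Sod2 probe sets therefore differed unequally within an array, and the size of the Sod2 difference depended on the probe set read.

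**Figure D2:**
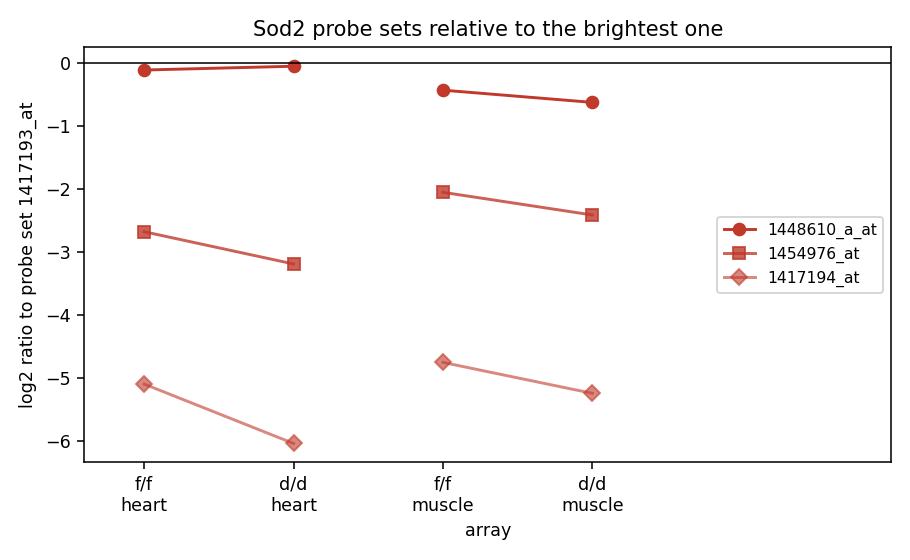
Log2 ratio of 3 Sod2 probe sets to the brightest, 1417193_at, on each array. The ratio of 1417194_at was lower by 0.94 in d/d than in f/f heart and by 0.49 in d/d than in f/f muscle, while that of 1448610_a_at differed by 0.06 in heart.

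Averaged over its 4 probe sets, Sod2 differed by -0.62 in heart (SD 0.47 between probe sets) and by -0.21 in muscle (SD 0.21). The brightest probe set is the one that represents the gene here. On it, 4204 of 13836 measured genes had a lower ratio of d/d to f/f than Sod2 in heart, and 55.1% of genes lay as far from 0. In muscle 8052 of 14256 genes had a lower ratio, and 87.9% lay as far from 0. On this probe set the deleted gene was in the middle of the distribution of all genes in both tissues. The difference between the heart and muscle effects was not tested, since each is a single pair of arrays.

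Sod1, the cytosolic dismutase, showed no direction shared by its probe sets. The probe set that represents it, 1459976_s_at, read 739 in f/f heart, 879 in d/d heart, 824 in f/f muscle and 754 in d/d muscle. The d/d array was the higher in heart (0.25) and the lower in muscle (-0.13), both within the yardstick. The suffix marks a design that can match more than 1 transcript. The other bright probe set, 1451124_at, read 657 in f/f heart, 748 in d/d heart, 798 in f/f muscle and 833 in d/d muscle, with differences of 0.19 and 0.06. Its muscle value was -0.03 as deposited.

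The dimmer Sod1 probe sets showed no shared direction either. Probe set 1435304_at read 56.4 in f/f and 46.5 in d/d heart, then 62.2 in f/f and 74.1 in d/d muscle, for differences of -0.28 and 0.25. Probe set 1440222_at read between 13.1 and 17.5 on the 4 arrays and differed by -0.07 in heart (0.04 after quantile normalization) and by -0.42 in muscle. The last, 1447761_x_at, read 1.11 to 6.41, at the floor on all 4 arrays, and gives no fold. Of the 4 measured probe sets, 2 were higher and 2 lower in d/d in each tissue. The means were 0.02 (SD 0.24) in heart and -0.06 (SD 0.29) in muscle.

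Sod3, the extracellular enzyme, stood highest of the 4 genes by ratio of d/d to f/f in both tissues, on the probe sets that represent them. Probe set 1417633_at read 98.9 in f/f heart, 138 in d/d heart, 24.6 in f/f muscle and 29.8 in d/d muscle. The d/d array was 1.40-fold higher in heart (0.48, beyond the yardstick of 0.39) and 1.21-fold higher in muscle (0.27, within it). The second probe set, 1417634_at, read 44.2 in f/f heart and 57.0 in d/d heart, 1.29-fold higher (0.37). In muscle it read 7.56 in f/f, just above the floor, and 3.05 in d/d, under it, so that its muscle value carries no usable fold. In heart 2021 of 13836 genes had a higher ratio than Sod3, and 32.3% of genes lay as far from 0. A difference of this size was thus common among genes of this pair of arrays.

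Markers of some other cell types, though not of smooth muscle, were also higher on the d/d heart array. The summed signal of 9 fibroblast markers was 5597 in f/f and 11142 in d/d heart, with 9 of 9 markers higher in d/d. That of 10 macrophage markers was 1792 and 2340, with 8 of 10 higher, and that of 8 endothelial markers 1505 and 1907, with 6 of 8 higher. The 7 smooth muscle markers summed to 3803 and 3914, with 3 higher. The median log2 differences were 1.12 for fibroblast, 0.45 for macrophage, 0.27 for endothelial and -0.19 for smooth muscle markers, beside -0.05 for all genes. The share of all genes higher in d/d heart was not counted. In muscle the fibroblast markers ran the other way, at 6961 in f/f and 4448 in d/d, with 0 of 9 higher. So did the macrophage markers, at 1189 and 770, with 0 of 10 higher. The endothelial markers summed to 893 and 854 there, with 5 of 8 higher. Smooth muscle markers summed to 4062 and 3812, with 1 of 6 measured higher. The Sod3 probe set above the floor was not lower in d/d muscle. The part of these cells in the Sod3 values was not tested.

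Catalase read nearly alike in the genotypes. Probe set 1416430_at read 842 in f/f heart, 893 in d/d heart, 666 in f/f muscle and 645 in d/d muscle. Its differences were 0.09 in heart and -0.05 in muscle, and 84.5% of genes in heart and 89.7% in muscle lay as far from 0. The other probe set, 1416429_a_at, read 759 in f/f heart, 918 in d/d heart, 516 in f/f muscle and 501 in d/d muscle, for differences of 0.27 and -0.04. Both probe sets were thus higher in d/d heart and lower in d/d muscle, and all 4 differences lay within the yardstick. Red cells are rich in catalase and Sod1. The summed signal of the 4 red cell markers on the array was 108 in f/f and 90.7 in d/d heart, with 53.7 and 70.7 in muscle. The marker Alas2 gave most of each sum, at 77.4 in f/f and 79.3 in d/d heart, and 35.7 and 48.8 in muscle. The lower d/d heart sum came from the other markers, whose signals were low or under the floor. Of these, Hba-a1 read 11.6 in f/f and 2.47 in d/d heart. The part of red cells in the Cat and Sod1 values was not tested.

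**Figure D3:**
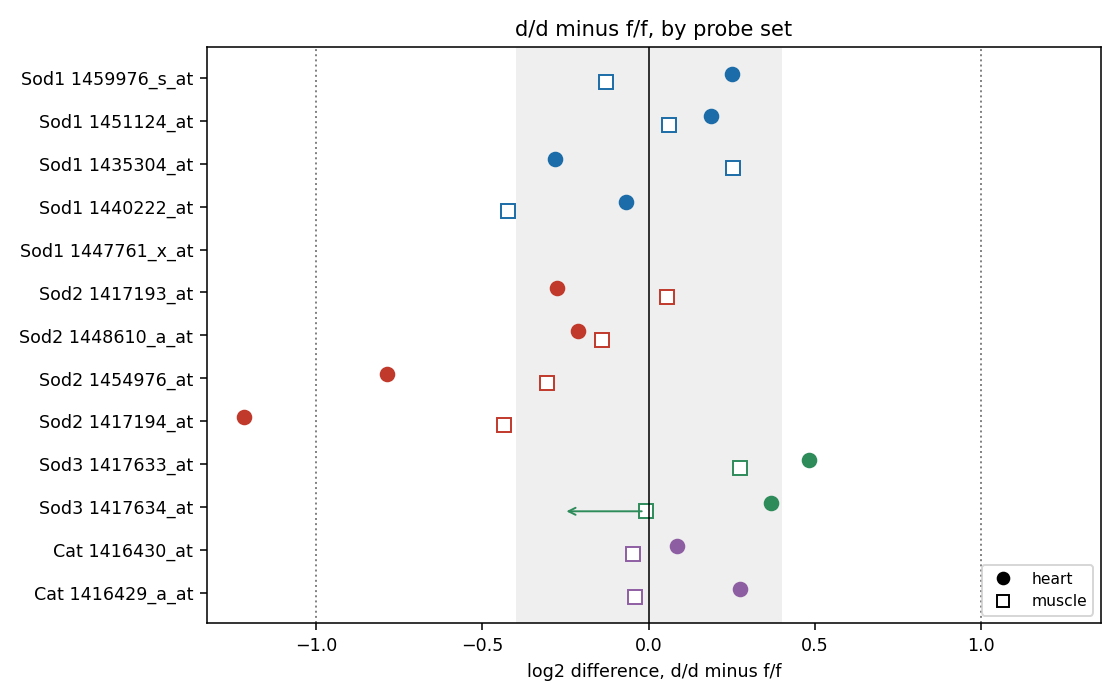
Log2 difference of d/d minus f/f for each probe set, in heart (filled circles) and muscle (open squares), with the band of 1 SD between probe sets of a gene in grey, the larger of the heart and muscle values (0.40), dotted lines at 2-fold, and an arrow for a bound set by the floor. The points outside the band on the low side are 1454976_at and 1417194_at of Sod2 in heart, at -0.79 and -1.22, and 1417194_at and 1440222_at in muscle, at -0.44 and -0.42; on the high side lies 1417633_at of Sod3 in heart, at 0.48.

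On the probe sets that represent them, 0 of the 4 genes differed by 2-fold in either tissue. Over all genes 8.16% did in heart and 5.89% in muscle. The genotype effect was also fitted over both tissues with limma, with tissue as a block. In this fit 0 of the 4 genes passed an adjusted p of 0.05, and 0 had an unadjusted p under 0.05. Of all 13497 genes fitted, 0 (0%) passed and 570 (4.22%) had an unadjusted p under 0.05. The fitted difference was -0.11 for Sod2 (95% interval -0.78 to 0.56), 0.06 for Sod1 (-0.62 to 0.74), 0.38 for Sod3 (-0.28 to 1.03) and 0.02 for Cat (-0.63 to 0.67), each with a limma adjusted p of 0.9998. Fitted by probe set, 0 of 12 passed after adjustment, and 1417194_at of Sod2 had the only unadjusted p under 0.05, at 0.040 by limma (difference -0.83, lower in d/d in 2 of 2 tissues). Of all 28659 probe sets fitted, 0 passed and 1298 (4.53%) had an unadjusted p under 0.05 by limma. The fit has 1 residual degree of freedom and takes as error the difference of the genotype effect between the tissues. The variance was also shared across genes, which gave 5.60 total degrees of freedom in the fit over genes. Its p-values measure no spread between animals.

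The second comparison set heart against muscle. Sod3 was the gene that differed most, and it was higher in heart in both genotypes. On 1417633_at it was 4.01-fold higher in f/f heart than in f/f muscle (log2 difference 2.01) and 4.64-fold higher in d/d (2.21). On 1417634_at it was 5.85-fold higher in f/f, against a muscle signal just above the floor, and at least 7.59-fold higher in d/d. With the floor at the 60th percentile these became bounds of 2.33-fold and 3.01-fold, and at the 20th the d/d bound was 18.7-fold, whereas the folds of 1417633_at did not move. On each Sod3 probe set both heart arrays read above both muscle arrays. With 2 arrays per tissue this carries little weight, and the share of all genes that did so was not counted. In f/f, 412 of 14364 genes had a higher heart to muscle ratio than Sod3, and in d/d 440 of 14124.

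Sod3 was the only 1 of the 4 genes past 2-fold, in f/f and in d/d, where 20.4% and 25.6% of all genes were. Its probe sets made up the 2 of 12 past 2-fold in each genotype, against 19.2% and 23.7% of all probe sets. In the limma fit over all 4 arrays, with genotype as a block, its tissue difference was 2.11 (SE 0.26, adjusted p = 0.0089, higher in heart in 2 of 2 genotypes). Of the 4 genes 1 passed, and of all 13497 genes 13.6%. Over 7 settings of this fit the adjusted p of Sod3 ran from 0.00060 to 0.15, and the highest came from the fit without a filter on low signals. Both Sod3 probe sets passed when every probe set was fitted, with limma adjusted p-values of 0.0093 and 0.0043. Of all 28659 probe sets in that fit 3156 (11%) passed. In f/f the macrophage markers summed to 1792 in heart and 1189 in muscle, the endothelial markers to 1505 and 893, the smooth muscle markers to 3803 and 4062 and the fibroblast markers to 5597 and 6961. In d/d the macrophage markers summed to 2340 in heart and 770 in muscle, the endothelial markers to 1907 and 854, the smooth muscle markers to 3914 and 3812 and the fibroblast markers to 11142 and 4448. The fibroblast sum was thus lower in heart than in muscle in f/f and higher in d/d. The part of these cells in the tissue difference of Sod3 was not tested.

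Cat was higher in heart on both probe sets in both genotypes, by 0.34 and 0.56 in f/f and by 0.47 and 0.87 in d/d. The limma fit gave 0.40 (95% interval -0.25 to 1.05, adjusted p = 0.35), so the difference was not past the threshold. Sod2 was higher in f/f heart than in f/f muscle by 0.48 on 1417193_at and 0.80 on 1448610_a_at, while 1454976_at differed by -0.14 (0.29 as deposited) and 1417194_at by 0.14. In d/d the bright probe sets remained higher in heart, by 0.15 and 0.73, and the dim ones were lower in heart, by -0.62 and -0.64. The limma tissue difference of Sod2 was 0.32 (95% interval -0.35 to 0.99, adjusted p = 0.47). Sod1 lay from -0.28 to -0.10 in f/f over its 4 measured probe sets, values that all turn positive with the intensities as deposited, and from -0.67 to 0.26 in d/d. Its limma difference was 0.03 (95% interval -0.65 to 0.71, adjusted p = 0.95).

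These tissue values rest on the scaling. Without it the median of all genes was 0.47 higher in heart than in muscle in f/f and 0.45 in d/d, against 0.08 and 0.01 with it. Sod3, Cat and the bright Sod2 probe sets kept their direction under scaling, no scaling and quantile normalization. Sod1 in f/f did not.

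**Figure D4:**
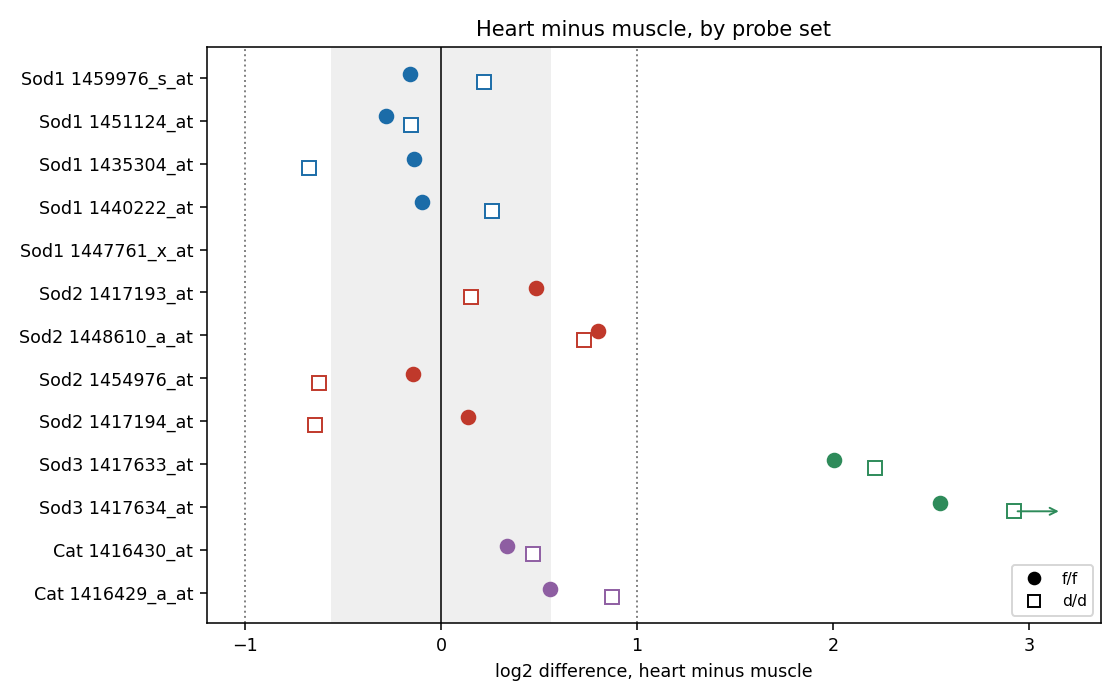
Log2 difference of heart minus muscle for each probe set, in f/f (filled circles) and d/d (open squares), with the larger SD between probe sets of a gene (0.56) as a grey band, dotted lines at 2-fold, and an arrow where the muscle array was at the floor. Both Sod3 probe sets lie between 2.01 and 2.92, and every other point lies between -0.67 and 0.87.

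Upstream sequences were looked up for all 4 genes. The set of mouse promoters used held no entry for Sod3, so only the sequences of Sod1, Sod2 and Cat are given. Each is the 250 bases before the gene's start from RefSeq, build GRCm38.p6, in the direction of transcription, and 3 of the 4 genes were matched. Capitals mark matches on either strand to the GC box GGGCGG, to CCAAT and to the TATA box TATAAA, with overlapping matches counted separately.
Sod2, chr17:13007589-13007838, plus strand: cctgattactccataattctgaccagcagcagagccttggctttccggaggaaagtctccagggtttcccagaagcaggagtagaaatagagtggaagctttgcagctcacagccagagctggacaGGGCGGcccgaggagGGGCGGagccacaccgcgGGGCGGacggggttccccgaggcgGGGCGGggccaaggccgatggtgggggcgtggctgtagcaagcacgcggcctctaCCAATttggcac
Sod1, chr16:90220512-90220761, plus strand: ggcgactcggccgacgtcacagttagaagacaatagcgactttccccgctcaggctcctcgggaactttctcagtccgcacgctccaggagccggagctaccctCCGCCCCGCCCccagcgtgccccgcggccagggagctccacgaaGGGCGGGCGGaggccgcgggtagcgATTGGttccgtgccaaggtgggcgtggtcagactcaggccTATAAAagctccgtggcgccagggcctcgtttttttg
Cat, chr2:103485154-103485403, minus strand: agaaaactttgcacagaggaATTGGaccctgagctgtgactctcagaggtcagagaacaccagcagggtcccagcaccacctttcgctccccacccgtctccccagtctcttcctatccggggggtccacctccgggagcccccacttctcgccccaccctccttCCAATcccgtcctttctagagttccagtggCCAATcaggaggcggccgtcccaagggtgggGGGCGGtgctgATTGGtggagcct

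The Sod2 stretch held 4 GC boxes, all between 124 and 62 bases before the start, 1 CCAAT and 0 TATA boxes. That of Sod1 held 4 GC boxes, which overlap in pairs, 1 CCAAT and 1 TATA box 37 to 32 bases before the start. That of Cat held 1 GC box, 4 CCAAT and 0 TATA boxes. Of 32851 mouse promoter stretches of the same length, 32.7% held a GC box, 33.8% CCAAT and 12.4% a TATA box, and 16.7% held at least 2 GC boxes. The share of G and C was 63.6% for Sod2, 66.4% for Sod1 and 62% for Cat, against a median of 52.4%. A match is a description of the letters, and binding was not measured.

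Genes around the 4 enzymes were described from lists. Among 19 genes listed under metal supply, 0 passed 2-fold in heart or in muscle. Most encode transporters, chaperones or binding proteins of copper, manganese or other metals, and not all of them serve these enzymes. Of all genes 8.16% passed in heart and 5.89% in muscle. The list medians were -0.10 and -0.03, beside -0.05 and -0.003 for all genes. Ccs, the chaperone that loads copper into Sod1, read 86.3 in f/f and 93.8 in d/d heart, with 113 and 115 in muscle. Atp7a, a copper pump that supplies secreted enzymes, read 38.3 and 66.7 in heart and 69.0 and 75.4 in muscle. Its other probe set, 1418774_a_at, went the other way in heart, at 62.6 and 46.5 (-0.43), and read 47.8 and 59.2 in muscle (0.31). The values on the probe sets that represent the genes are log2 differences of 0.12 and 0.03 for Ccs and of 0.80 and 0.13 for Atp7a, so all were short of 2-fold.

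Of the other enzymes that act on hydrogen peroxide, the glutathione peroxidases, peroxiredoxins, thioredoxins and glutaredoxins, 1 of 19 was at least 2-fold higher in d/d heart and 0 were lower, where 3.94% and 4.22% of all genes were. In muscle 0 of 19 passed, where 5.89% of all genes did. The medians were 0.09 in heart and 0.07 in muscle. Srxn1, the sulfiredoxin that restores overoxidised peroxiredoxins, read 49.5 in f/f and 99.2 in d/d heart, 2.01-fold higher, and 60.3 and 63.8 in muscle. Its heart difference of 1.004 was 0.95 without scaling, just short of 2-fold. Of its other probe sets in heart, 1425351_at and 1426875_s_at were 2.82-fold and 2.27-fold higher and 1419942_at, near the floor, was lower. Gpx1, a cytosolic and mitochondrial glutathione peroxidase, read 604 in f/f and 993 in d/d heart (0.72) and 450 and 468 in muscle (0.06). Prdx3, the peroxiredoxin of the mitochondrial matrix, read 1196 and 1200 in heart and 1386 and 1528 in muscle. The Prdx3 difference was thus small beside the yardstick in both tissues.

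Among genes whose products make superoxide or hydrogen peroxide, 22 were on the array, of which 18 were measured in heart and 19 in muscle. In heart 1 was at least 2-fold higher and 1 lower, where 3.94% and 4.22% of all genes were. In muscle 2 were higher and 1 lower, where 2.64% and 3.25% of all genes were. Maob, a monoamine oxidase of the outer mitochondrial membrane that yields hydrogen peroxide, read 407 in f/f and 116 in d/d heart, 3.52-fold lower, and 242 and 264 in muscle. Nox4, an NADPH oxidase that yields mainly hydrogen peroxide, was at the floor in f/f heart and read 97.5 in d/d heart, at least 13.0-fold higher, and read 11.6 and 11.1 in muscle. The Nox4 bound was 5.14-fold when the 60th percentile was the floor and 26.7-fold for the 20th. Its second probe set, also under the floor in f/f heart, was at least 5.06-fold higher in d/d heart. Maoa, the other monoamine oxidase, read 41.7 in f/f and 83.6 in d/d muscle, 2.01-fold higher, and its other probe set 26.0 and 36.9. The difference of 1.004 for Maoa was 0.91 without scaling and 0.98 after quantile normalization. The bounds for Ncf4, at least 2.45-fold lower, and Acox2, at least 2.28-fold higher, in d/d muscle rest on signals under 20 and vanish with a higher floor.

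For the peroxisome, the compartment of catalase, 17 biogenesis and membrane genes had a median difference of -0.30 in heart, beside -0.05 for all genes. In muscle their median was -0.08, beside -0.003 for all genes. Pxmp2, a channel protein of the peroxisomal membrane, read 615 in f/f and 285 in d/d heart, 2.16-fold lower, and 468 and 481 in muscle. Pxmp2 was the only 1 of 17 past 2-fold in heart, and 0 were in muscle, where 8.16% and 5.89% of all genes were. Pex5, the receptor that imports enzymes with a C-terminal signal, read 39.9 and 41.8 in heart and 46.4 and 54.4 in muscle. Catalase itself was higher in d/d heart on both probe sets, by the small amounts given above.

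Of 21 regulators linked to these genes, 0 passed 2-fold in heart, where 8.16% of all genes did. The list median in heart was -0.15, beside -0.05 for all genes. In muscle 1 passed, where 5.89% of all genes did. There the median was 0.14, beside -0.003 for all genes. The regulator past 2-fold was Pparg, a nuclear receptor of fat cells. It read 6.41, under the floor, in f/f and 17.1 in d/d muscle. That is at least 2.28-fold higher, a bound that vanishes with a higher floor. Foxo3, a factor known to act on Sod2 and Cat, read 185 in f/f and 150 in d/d heart (-0.30) and 129 and 91.6 in muscle (-0.50). Its other probe set above the floor, 1434832_at, differed by -0.19 in heart and by -0.02 in muscle, so the muscle value depends on the probe set. Nfe2l2, the oxidant-responsive factor NRF2, read 361 and 403 in heart (0.16) and 255 and 288 in muscle (0.18). Ppargc1a, a coactivator of mitochondrial and antioxidant genes, read 255 and 142 in heart (-0.84) and 134 and 183 in muscle (0.44). Its 4 other probe sets lay between -0.52 and -0.23 in heart and between -0.03 and 0.32 in muscle. The muscle value of Ppargc1a thus depends on the probe set.

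**Figure D5:**
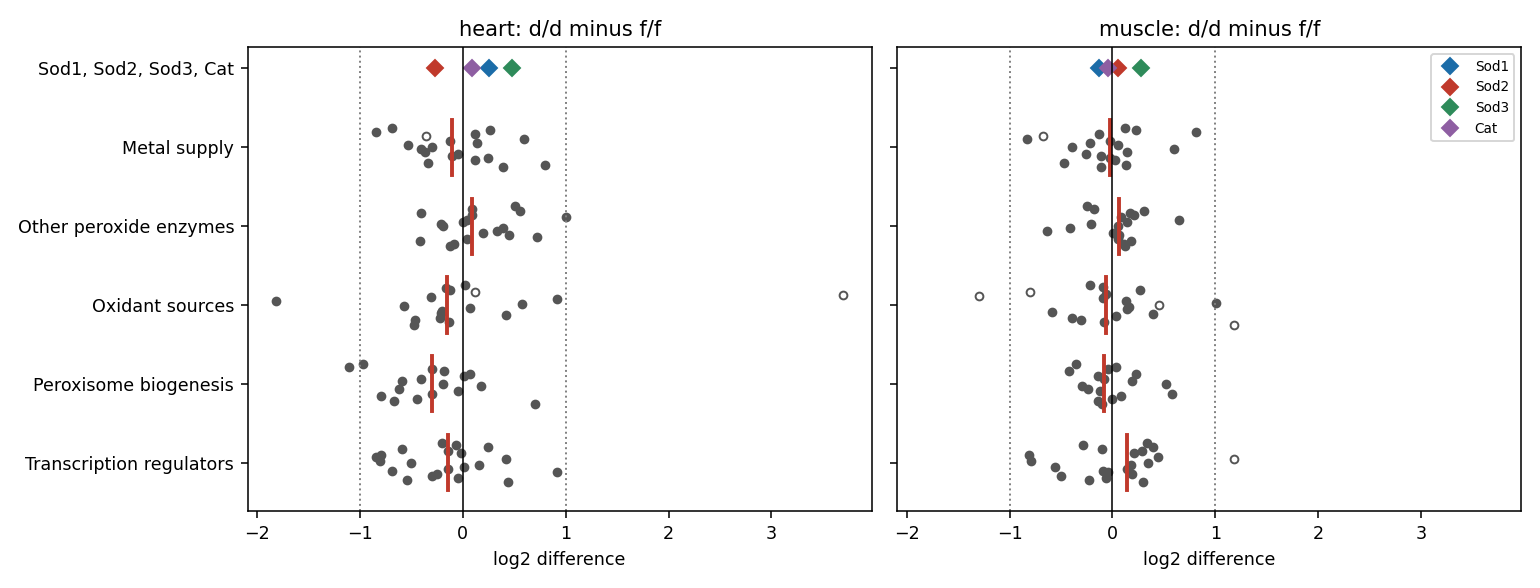
Log2 difference of d/d minus f/f for the 4 genes (coloured diamonds) and for genes of 5 lists (grey points, open where an array was at the floor), in heart and muscle, with list medians as red bars and dotted lines at 2-fold. The medians lie between -0.30 and 0.09 in heart and between -0.08 and 0.14 in muscle, and the point farthest right in heart is Nox4.

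The genes whose pattern over the 4 arrays lay closest to each enzyme were found by the root mean square distance of centred log2 values, among 10538 genes above the floor on all arrays. For Sod3 these were Sptan1 (0.04), Wfdc17 (0.06) and Snai2 (0.06), and 7 genes in all lay within 0.1. Sptan1 read 791 in f/f heart, 1071 in d/d heart, 206 in f/f muscle and 231 in d/d muscle. For Sod2 the closest were Acadvl, Zadh2 and Tubb4b, for Sod1 Pcbp1, Nifk and Nme1, and for Cat Lrrc14, Enpep and Wdr20, all at 0.01 to 0.02. For these 3 enzymes 305, 342 and 378 genes lay within 0.1, so that 4 arrays single out few genes for Sod3 and many for the others.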

How the data were processed

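The deposited values are linear intensities, 1 for each probe set on each array, and no source used here says how the authors computed these intensity values. Groups were taken from titles and the tissue label. Each array was scaled so that its 2% trimmed mean, control probe sets left out, met the mean of the 4. Signals under the floor, the mean 40th percentile, were set to it and log2 was taken. A single gene symbol was listed for 34945 of 45037 probe sets, several (left unnamed) for 932 and none for the rest. Symbols were looked up by Entrez id in RefSeq's table (0 changed). The brightest probe set by mean log2 value stood for its gene. A difference was called at 2-fold with the higher array above the floor. Folds against floored signals are lower bounds.

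Genotype and tissue effects were fitted with limma 3.58.1 in R 4.3.3 over genes that exceeded the floor on 2 or more arrays, adjusted by Benjamini-Hochberg, and tested on simulated data. The arrays give no counts, and their number limits the precision. The named genes were all members, up to 4 genes per list and tissue past 2-fold, and the 3 nearest patterns. Other list genes named, such as Ccs, Atp7a, Gpx1, Prdx3, Pex5, Foxo3, Nfe2l2 and Ppargc1a, were chosen for their role after the values were seen. The members and lists were chosen with earlier results of these data known. Alternatives were other scalings, floors, a pseudocount of 16 and other choices of probe set.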

Additional observations from a re-analysis of the deposited data

Results flagged for a closer look

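Catalase was the only 1 of the 4 genes whose measured probe sets all lay one way in heart and all the other way in muscle. On the probe set that represents it, the d/d minus f/f log2 difference was 0.09 in heart and -0.05 in muscle, which are 0.13 apart. Of all genes 84.5% in heart and 89.7% in muscle lay as far from 0. Cat has only 2 probe sets that must agree, and the share of all genes with this pattern was not counted. It is therefore not read as a trait of Cat. The difference between the tissues was not tested, and both values lie within the spread between probe sets of a gene.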

How the results depend on the processing

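The number of the 4 genes past 2-fold was the same under the 7 alternatives in each of the 4 comparisons, 0 for the genotypes and 1, Sod3, for the tissues. Of 112 single values under alternatives, 110 moved by less than the spread between probe sets of a gene. The others were Sod1 with the median over its probe sets, at -0.28 in heart and, for heart against muscle in d/d, at -0.67. Many of the 110 could not move. The probe sets that represent the genes lay above the other floors, so those values equalled the main ones. Sod2, Sod3 and Cat were likewise unchanged without probe sets that can share sequence. The sign changed under at least 1 alternative for Sod1 in each comparison and for Sod2 in muscle. In the limma fits, members called for genotype stayed at 0 under 7 alternatives. For tissue 1 was called except with all genes and no filter, where 0 were and Sod3 had an adjusted p of 0.15. The total degrees of freedom were then 1.499 in place of 5.60, and 0 of 18193 genes passed (3631 at an unadjusted p under 0.05).

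Over all genes, counts past 2-fold were 1129 in heart and 839 in muscle, and ran from 390 to 3418 and from 130 to 3429 over the alternatives. For heart against muscle they were 2933 in f/f (1678 to 5396) and 3619 in d/d (2196 to 6078). Without scaling, the share of higher calls went from 44.8% to 31.1% in muscle, from 59.4% to 83.7% in f/f tissues and from 59.0% to 83.3% in d/d tissues. The tissue effect called 1840 genes in the main limma fit and 1236 to 3341 in the other fits that called any; the genotype effect called 0, or 1 with an intensity trend. No paired analysis was possible by replicate number because each group has 1 array, and the limma fits took tissue or genotype as the block in its place. Signals near the floor limit 1447761_x_at and 1417634_at in muscle.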
